A study of Mus musculus with 4 samples.

Results

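The genes of collagen and laminin chains, with fibronectin, the nidogens and Sparc, were followed across 4 pools of mouse small intestinal RNA. Members were taken by symbol: every probe set of a collagen alpha chain (Col, a number, a, a number), of a laminin chain (Lama, Lamb or Lamc and a digit), or of Fn1, Nid1, Nid2 or Sparc. This gave 110 probe sets of 56 genes, of 18194 genes with a probe set of their own on the array, and 42 of the 56 are collagen genes and 10 are laminin genes. Of these, 64 probe sets of 40 genes (27 collagen and 9 laminin genes) were bright enough to use, with a signal at or above the median of the array on at least 1 of the 4 arrays. The other 16 genes, among them the cartilage chain Col2a1, the hemidesmosome chain Col17a1, the anchoring fibril chain Col7a1 and Lamc3, were below it on all 4. Of the 40, 10 had no probe set at the median on every array.

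The samples were CF + lubiprostone, CF control, WT + lubiprostone and WT control. CF mice carry the cftr-tm1Unc null allele and WT mice the normal gene, on the C57BL/6 strain in the labels (C57BL/6J in the methods), and every group was kept on Peptamen, a liquid diet. Treated mice received lubiprostone, a bicyclic fatty acid given for constipation, at 10 μg/kg by daily gavage in Peptamen for 2 weeks, while the labels give no treatment for the controls. RNA of the whole small intestine, trimmed of mesentery, was pooled in equal amounts from 8 CF + lubiprostone mice, 10 CF control mice, 7 WT + lubiprostone mice and 10 WT control mice by the description of the series (the methods give a smaller number for the WT control pool). A single Affymetrix Mouse 430 2.0 array was run per pool, so there is 1 value per group, no spread between mice or pools can be had, and no difference here was tested. In whole tissue, fewer cells of a type and less RNA per cell cannot be told apart.

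Signals are intensities in arbitrary units, scaled by the authors to the same trimmed mean, and the array medians ran between 109 and 124. They are compared only within a probe set. Cftr itself had signals of 715 and 620.2 in the CF pools (CF + lubiprostone and CF control), against 2226 and 2505 in the WT pools (WT + lubiprostone and WT control). The enterocyte gene Fabp1 lay between 48906 and 54384 on the 4 arrays. Sex-linked transcripts differed between the pools. Xist, expressed from the inactive X chromosome, had, on its brightest probe set, 4062 in CF + lubiprostone, 2509.9 in CF control, 3683 in WT + lubiprostone and 1036 in WT control, and Eif2s3y, on the Y chromosome, had 805, 884, 829 and 1242 in the same order, so genotype, treatment and the mix of sexes cannot be told apart in these comparisons.

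Collagens are trimers of alpha chains. The fibrillar types I, III and V make the tough fibres of the submucosa and lamina propria, largely from fibroblasts and smooth muscle. Type IV collagen and the laminins, heterotrimers of an alpha, a beta and a gamma chain, form separate sheets that nidogens help to link, and together they make the basement membrane beneath the intestinal epithelium and around muscle cells and vessels.

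Among the brightest members are chain genes that lie next to each other in the genome, and their promoters are shown because the chains were followed as pairs. Col4a1 and Col4a2, the chains of the widespread form of collagen IV, lie head to head on chromosome 8 (GRCm38.p6, chr8:11198423-11312889 and chr8:11312805-11449287). The promoter windows that RefSeq gives on this build, 300 bases that run from upstream to just past each start site, are for this pair chr8:11312777-11313076 on the minus strand and chr8:11312555-11312854 on the plus strand. Capitals mark the 78 bases that both windows share, chr8:11312777-11312854, read from opposite strands:
Col4a1: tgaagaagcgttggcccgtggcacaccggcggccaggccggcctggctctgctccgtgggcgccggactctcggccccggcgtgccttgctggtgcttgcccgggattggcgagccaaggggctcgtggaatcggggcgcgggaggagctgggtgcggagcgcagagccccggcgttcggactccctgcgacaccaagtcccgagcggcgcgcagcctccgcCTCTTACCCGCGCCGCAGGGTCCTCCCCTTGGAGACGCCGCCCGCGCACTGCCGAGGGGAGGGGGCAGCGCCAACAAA
Col4a2: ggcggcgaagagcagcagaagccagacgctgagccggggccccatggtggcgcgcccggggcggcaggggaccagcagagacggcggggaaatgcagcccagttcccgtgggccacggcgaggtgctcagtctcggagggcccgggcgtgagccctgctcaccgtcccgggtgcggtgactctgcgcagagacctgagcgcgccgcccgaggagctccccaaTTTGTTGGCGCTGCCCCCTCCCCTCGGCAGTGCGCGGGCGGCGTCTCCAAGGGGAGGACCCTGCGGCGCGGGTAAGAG
The start sites of both windows thus lie on the same short stretch of DNA. The gene interval of Col4a1 begins outside it, at 11312889, and overlaps that of Col4a2.

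For the fibrillar chains, the windows of Col1a2 (chr6:4505368-4505667, plus strand) and Col3a1 (chr1:45311288-45311587, plus strand) are given with 3 short motifs in capitals where present. These are CCAAT, the core of the CCAAT box, GGGCGG, the GC box, and TATAAA, the TATA box, each searched on both strands (so CCAAT on the minus strand reads ATTGG here). No motif overlaps another in these windows:
Col1a2: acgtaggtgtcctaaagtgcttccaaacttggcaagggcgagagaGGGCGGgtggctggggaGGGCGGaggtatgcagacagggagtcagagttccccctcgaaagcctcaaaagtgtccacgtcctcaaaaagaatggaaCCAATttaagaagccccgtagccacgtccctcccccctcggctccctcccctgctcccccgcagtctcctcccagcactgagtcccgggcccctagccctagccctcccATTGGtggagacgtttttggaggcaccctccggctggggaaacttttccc
Col3a1: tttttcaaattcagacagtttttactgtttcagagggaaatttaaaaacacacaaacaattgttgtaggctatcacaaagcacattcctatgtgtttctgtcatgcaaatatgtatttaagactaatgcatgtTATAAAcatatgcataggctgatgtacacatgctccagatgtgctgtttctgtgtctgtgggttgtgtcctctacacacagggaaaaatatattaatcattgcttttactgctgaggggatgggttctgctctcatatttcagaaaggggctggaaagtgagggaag
In Col1a2, GGGCGG lies at -205 and -188 and CCAAT at -109 from the start site, with an ATTGG at 1, and in Col3a1 a TATAAA lies at -117. RefSeq promoters were found for 40 of the member genes, 44 promoters in all. GGGCGG was in 59.1% of these 44 and in 35.7% of the 32851 promoters of the genome set, CCAAT in 34.1% and 37.4%, and TATAAA in 11.4% and 13.6%. A match of letters is a description and not a binding site.

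The CF control pool had the highest signals of Col1a1, Col1a2, Col3a1, Col5a1 and Col5a2. Ratios of CF control over WT control are called the untreated CF/WT ratio here, and those of the treated pools the treated CF/WT ratio. Ratios of treated over control mice are called the CF lubiprostone ratio and the WT lubiprostone ratio by genotype. In CF control against WT control, 15 of the 39 member genes that could be compared were higher by at least 1.5-fold and 8 were lower by as much, where 7.95% of all 11806 genes were higher and 11.8% lower by that much. The median log2 ratio of the members was 0.36, and that of all genes -0.02. A gene that was kept only through 1 bright pool must differ between pools, so the counts were repeated on probe sets chosen by their mean signal over the 4 arrays: 11 of 34 member genes were then higher and 6 lower, where 6.56% and 10.1% of all 11227 genes were. At 3-fold, which 2.98% of all genes reached in either direction, 2 members passed as measured, Col8a1 and Col25a1, and both had signals below the median on 1 of the 2 arrays compared.

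In CF + lubiprostone against CF control, 5 fibrillar chains (Col1a1, Col1a2, Col3a1, Col5a1 and Col5a2) were lower. Of 37 member genes, 11 were at least 1.5-fold lower and 2 at least 1.5-fold higher, where 6.43% of all 11795 genes were lower and 9.43% higher. The median log2 ratio of the members was -0.40, and that of all genes 0.01. By mean signal, 9 of 34 were lower and 1 higher, against a background of 4.92% and 7.77%. At 3-fold (1.68% of all genes) 2 members passed as measured, Lamb3, which was higher, and Lama1, which was lower and dim. This comparison and the one between the genotypes share the CF control array, so a high reading on that array raises the one ratio and lowers the other.

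The comparisons that do not use the CF control array were flatter by the counts at 1.5-fold. That of the WT pools shares the WT control array with the untreated genotype comparison. In WT + lubiprostone against WT control, 1 of 36 members was at least 1.5-fold higher (Col9a1, where 4.46% of all 11691 genes were) and 2 were lower (Col25a1 and Nid2, where 5.07% were). The median log2 ratio of the members was -0.14, and that of all genes -0.0034. Of the 36, 24 had a ratio below 1, where 5907 of 11691 genes had. Of the 21 members that reached the 75th percentile of an array, 18 had (median -0.21), where 3735 of 7404 such genes had. At 3-fold (1.06% of all genes) only Col25a1 passed, as measured. By mean signal, 1 of 34 was higher (2.97% of all genes) and 1 lower (3.5%). Between the treated pools, CF + lubiprostone against WT + lubiprostone, 2 of 36 were higher (Col6a4 and Col5a3, where 8.22% of 11792 genes were) and 2 lower (Col4a5 and Col23a1, where 8.86% were). Their median was -0.01, and no member passed 3-fold (2.52% of all genes). By mean signal, 1 of 34 was higher there (6.7% of all genes) and 2 lower (7.34%). The CF over WT ratio had the same direction in untreated and treated mice for 23 of 35 members (65.7%), 14 higher and 9 lower in both, which is near the 63.4% of all genes.

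**Figure D1:**
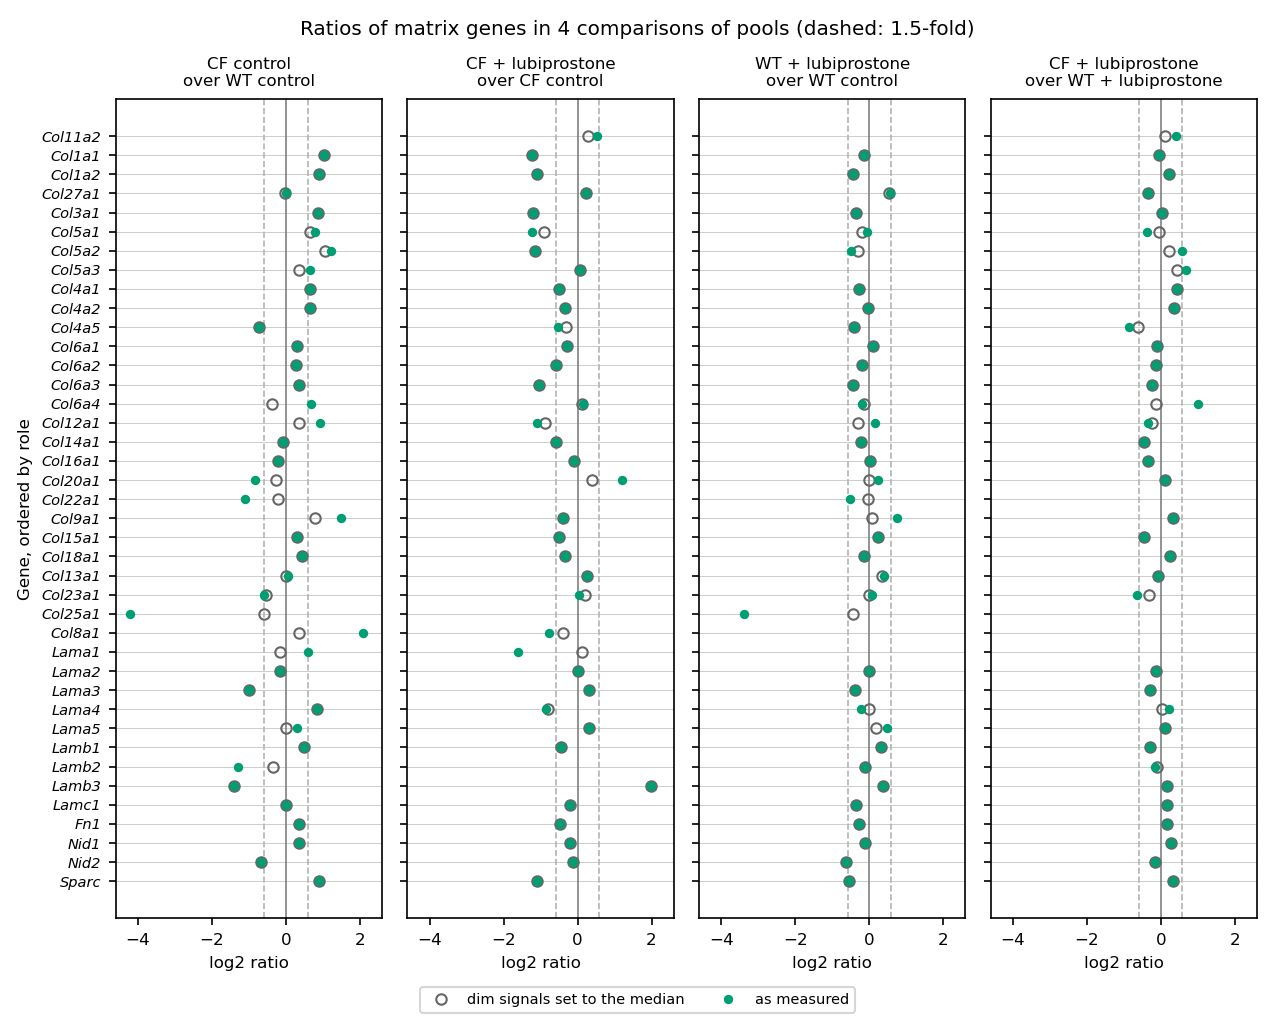
Log2 ratios of the 40 member genes with a usable probe set in the 4 comparisons of pools, 1 row per gene in the order of roles. Filled points are ratios as measured, averaged over the probe sets of a gene, open points have signals below the median of an array set to that median, and dashed lines mark 1.5-fold. The fibrillar genes Col1a1, Col1a2, Col3a1, Col5a1 and Col5a2 lie right of the dashed line in the untreated CF/WT ratio and left of it in the CF lubiprostone ratio.

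Of 11 fibrillar genes, 7 could be compared between the untreated pools, 6 of them at least 1.5-fold higher (against 7.95% of all genes), and their median log2 ratio was 0.88. With dim signals set to the median 5 were, without Col5a3, and Col27a1 was nearly equal in the pools. In the CF lubiprostone ratio, 5 of 8 were at least 1.5-fold lower (against 6.43% of all genes), with a median of -1.12. The other 3 were not lower: Col11a2, Col27a1 and Col5a3 had log2 ratios of 0.52, 0.23 and 0.07 there. The medians were -0.26 in the WT lubiprostone ratio, where none passed 1.5-fold, and 0.13 in the treated CF/WT ratio.

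Col1a1 encodes the alpha 1 chain of type I collagen, the main fibre of connective tissue. Its brighter probe set had signals of 597 in CF + lubiprostone, 1913 in CF control, 704 in WT + lubiprostone and 693 in WT control. The CF control pool stands alone here, 2.76-fold above WT control, and CF + lubiprostone was 3.20-fold below it. The other probe set had 424 in CF + lubiprostone, 739 in CF control, 388 in WT + lubiprostone and 486 in WT control, ratios of 1.52 and a 1.74-fold lower signal with lubiprostone. Over both, Col1a1 was 2.05-fold above WT control in CF control, above 97.4% of all genes, and 2.36-fold below CF control in CF + lubiprostone. Between the treated pools its ratio was 0.963, with 0.849 and 1.09 on the single probe sets.

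Col1a2 encodes the partner chain, of which 1 joins 2 alpha 1 chains in the trimer. Signals were 1499.9 in CF + lubiprostone, 2726 in CF control, 1287 in WT + lubiprostone and 1432 in WT control. Again only the CF control pool stood out, and the gene's mean over 2 probe sets was 1.85-fold above WT control in CF control, and 2.13-fold below CF control in CF + lubiprostone. The chains of type I collagen moved by like amounts, with log2 ratios of 1.03 for Col1a1 and 0.88 for Col1a2 between the untreated pools and -1.24 and -1.09 with lubiprostone in CF mice. In WT mice lubiprostone gave log2 ratios of -0.15 for Col1a1 and -0.43 for Col1a2.

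Col3a1, the single chain of type III collagen, which is woven into the walls of hollow organs, had 5845 in CF + lubiprostone, 13244 in CF control, 5899 in WT + lubiprostone and 7840.1 in WT control. Its second probe set had 549.8 in CF + lubiprostone, 1301 in CF control, 519 in WT + lubiprostone and 650.1 in WT control. CF control was the highest pool on both probe sets, with an untreated CF/WT ratio of 1.84, and CF + lubiprostone lay 2.32-fold below CF control. The treated pools were nearly equal, at a ratio of 1.02.

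Type V collagen is the minor chain set that starts type I fibrils. Col5a2, which lies next to Col3a1 on chromosome 1, had 675 in CF + lubiprostone, 1496 in CF control, 553 in WT + lubiprostone and 838 in WT control. Over 2 probe sets it was at least 2.09-fold above WT control in CF control, and 2.21-fold below CF control in CF + lubiprostone. Col5a1 had 372 in CF + lubiprostone, 834 in CF control, 434 in WT + lubiprostone and 519 in WT control on its brightest of 3 probe sets. The 3 probe sets differ in size but all put CF control highest, with CF over WT ratios of 1.61 and 1.26 and, for the dim one, at least 1.90. Between the treated pools, where each has a dim probe set, the CF over WT ratio was 1.48 for Col5a2 and 0.778 for Col5a1 as measured, and 1.17 and 0.969 with dim signals set to the median. Col5a3, a further and dimmer chain, was picked out after its values were seen, with 165 in CF + lubiprostone, 157 in CF control, 103 in WT + lubiprostone and 99.9 in WT control, so both CF pools lay above both WT pools.

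**Figure D2:**
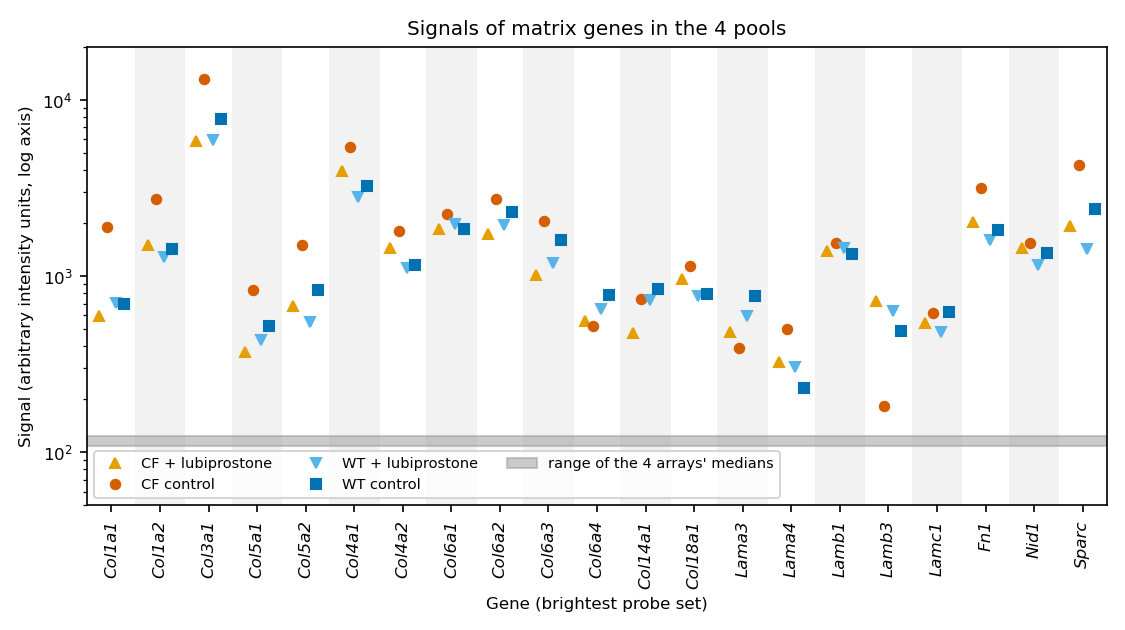
Signals of the brightest probe set of the 21 brighter member genes, in arbitrary intensity units on a log axis, with 1 point per pool and the range spanned by the array medians shaded in grey. CF control lies highest for the 5 fibrillar genes shown (13244 for Col3a1), and lowest by far for Lamb3 (183).

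Sparc, a secreted protein that binds collagen and helps it to assemble, was also highest in CF control. The brighter probe set had 1917 in CF + lubiprostone, 4300.1 in CF control, 1431 in WT + lubiprostone and 2412 in WT control. The other had 1819.8 in CF + lubiprostone, 3729 in CF control, 1523 in WT + lubiprostone and 1907 in WT control. The probe sets were close, and Sparc was 1.87-fold above WT control in CF control, and 2.14-fold below CF control in CF + lubiprostone. In WT mice its lubiprostone ratio was 0.688.

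Collagen IV, the network of the basement membrane, shifted the same way by less. Col4a1 had 3939 in CF + lubiprostone, 5404 in CF control, 2820.0 in WT + lubiprostone and 3269 in WT control, and over 2 probe sets it was 1.58-fold above WT control in CF control. Col4a2 had 1442 in CF + lubiprostone, 1807 in CF control, 1119 in WT + lubiprostone and 1154 in WT control, 1.57-fold above WT control in CF control. The chains of this head-to-head pair had log2 ratios of 0.66 for Col4a1 and 0.65 for Col4a2 between the untreated pools. With lubiprostone in CF mice Col4a1 was 1.41-fold lower and Col4a2 1.25-fold lower. Both remained above WT in the treated mice, with CF over WT ratios of 1.37 for Col4a1 and 1.29 for Col4a2.

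Col4a5, an X-linked chain of another collagen IV trimer, differed from them between the genotypes. It was picked out after its values were seen, with 160.3 in CF + lubiprostone, 259 in CF control, 256 in WT + lubiprostone and 452 in WT control, and with 86.0, 112, 178 and 179 on a dimmer probe set in the same order. It was 1.67-fold below WT control in CF control and at least 1.54-fold below WT + lubiprostone in CF + lubiprostone. With lubiprostone in CF mice it was lower too, at least 1.23-fold. Col4a3, Col4a4 and Col4a6 were below the median on all 4 arrays.

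Type VI collagen, which builds the beaded filaments around cells, shifted unevenly between its chains. Col6a3 had 1010.4 in CF + lubiprostone, 2068 in CF control, 1196 in WT + lubiprostone and 1609 in WT control. Col6a1 had 1855 in CF + lubiprostone, 2266 in CF control, 1989 in WT + lubiprostone and 1842 in WT control. Col6a2, the neighbour of Col6a1 on chromosome 10, had 1729.8 in CF + lubiprostone, 2739 in CF control, 1954 in WT + lubiprostone and 2312 in WT control. Between the untreated pools the 3 chains were alike, at log2 ratios of 0.30 for Col6a1, 0.27 for Col6a2 and 0.36 for Col6a3. In the CF lubiprostone ratio they spread out, at -0.29 for Col6a1, -0.58 for Col6a2 and -1.03 for Col6a3. Col6a4 cannot be given a direction between genotypes, since 1 probe set had 559 in CF + lubiprostone, 519 in CF control, 655 in WT + lubiprostone and 785 in WT control, and another had 120.2, 105, 25.0 and 27.1 in the same order.

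The remaining brighter collagens had small ratios between the untreated pools. Col14a1, a FACIT collagen that sits on the surface of fibrils, had 479 in CF + lubiprostone, 747 in CF control, 729.7 in WT + lubiprostone and 850.1 in WT control, with an untreated CF/WT ratio of 0.949. Col18a1, a basement membrane collagen and the source of endostatin, had 966 in CF + lubiprostone, 1142 in CF control, 775 in WT + lubiprostone and 796 in WT control, with a ratio of 1.36. With lubiprostone in CF mice Col14a1 had a log2 ratio of -0.58, just short of 1.5-fold, and Col18a1 was 1.26-fold lower.

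Of the dimmer collagens at or past 1.5-fold, all picked out after their values were seen, Col9a1, a FACIT chain, had 162 in CF + lubiprostone, 214 in CF control, 129 in WT + lubiprostone and 76.5 in WT control. It was at least 1.73-fold above WT control in CF control. Col8a1, of the hexagonal networks of vessel walls, had 92.2 in CF + lubiprostone, 157 in CF control, 21.3 in WT + lubiprostone and 36.8 in WT control, at least 1.27-fold higher in CF control. Only the CF control pool reached its array's median. Col25a1, a transmembrane collagen known from neurons, reached it only in WT control, with 15.9 in CF + lubiprostone, 8.90 in CF control, 15.8 in WT + lubiprostone and 164 in WT control. With dim signals set to the median its log2 ratio was -0.59 between the untreated pools, and it was at least 1.34-fold lower in WT + lubiprostone than in WT control. Col12a1, another FACIT chain, differed between its usable probe sets in the untreated CF/WT ratio. It had 199 in CF + lubiprostone, 372 in CF control, 269 in WT + lubiprostone and 399 in WT control on the brighter and 85.9, 214, 102 and 54.6 on the dimmer in the same order. In the CF lubiprostone ratio both were lower, and the gene was at least 1.83-fold lower.

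Other dim members had ratios short of 1.5-fold or rested on signals near the median. Col15a1, a multiplexin of vessel basement membranes, had 193 in CF + lubiprostone, 274 in CF control, 263 in WT + lubiprostone and 224 in WT control. Col16a1, a FACIT chain, had 239.5 in CF + lubiprostone, 255 in CF control, 302 in WT + lubiprostone and 298 in WT control. Col15a1 was highest in CF control, at an untreated CF/WT ratio of 1.22 and a CF lubiprostone ratio of 0.706. Col16a1 stayed within a narrower range over the pools. So did Lama2, the alpha chain of muscle laminin, with 195, 192, 213 and 214 in the same order. Col27a1, a fibrillar chain best known from cartilage, stood out in WT + lubiprostone, with 283 in CF + lubiprostone, 239 in CF control, 415 in WT + lubiprostone and 246 in WT control. Col20a1 had 146 in CF + lubiprostone, 109 in CF control, 137 in WT + lubiprostone and 141 in WT control on its brighter probe set, and Col22a1 reached the median only in WT control, with 126.

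**Figure D3:**
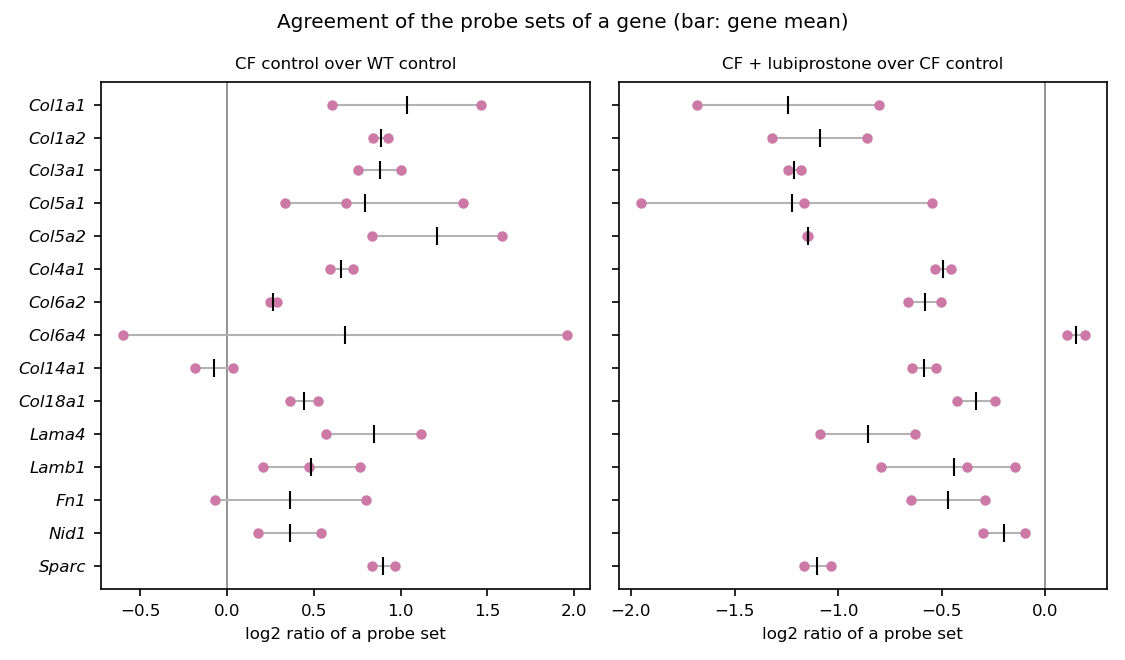
Log2 ratios of the single probe sets (points) of each brighter member gene with several, with a black bar for their mean, in the untreated CF/WT ratio (left) and CF + lubiprostone over CF control (right). All probe sets of Col1a1, Col1a2, Col3a1, Col5a1, Col5a2, Col4a1 and Sparc lie right of 0 on the left and left of 0 on the right, while those of Col6a4 and Fn1 fall on both sides of 0 on the left.

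Laminins had medians near 0. Of 10 laminin genes, 9 could be compared between the untreated pools, 4 higher and 5 lower in CF control, and their median log2 ratio was -0.01. The median of the 26 collagens compared was 0.40. In the CF lubiprostone ratio the medians were -0.08 for laminins and -0.50 for collagens.

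Lamb3, the beta chain of laminin-332, which anchors epithelium to its basement membrane, had the pattern opposite to that of Col1a1. It rests on 1 probe set, so no agreement between probe sets can be read. Its signals were 720.4 in CF + lubiprostone, 183 in CF control, 637 in WT + lubiprostone and 487 in WT control. It was 2.67-fold below WT control in CF control, with 2.43% of all genes below it, and 3.94-fold above CF control in CF + lubiprostone, above 99.5% of all genes. In WT mice lubiprostone gave a ratio of 1.31, and the treated pools differed by a ratio of 1.13. Lama3, the alpha chain of the same trimer, had 482 in CF + lubiprostone, 391 in CF control, 591 in WT + lubiprostone and 777 in WT control. It was likewise lowest in CF control, 1.99-fold below WT control, but 1.23-fold above CF control in CF + lubiprostone, a smaller step than that of Lamb3.

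Lama4, an alpha chain of vessel and muscle basement membranes, had its highest signals in CF control. It had 326 in CF + lubiprostone, 504 in CF control, 307 in WT + lubiprostone and 232 in WT control on its brighter probe set, and 112, 238, 88.8 and 160.1 on the other in the same order. CF control was highest on both, and Lama4 was 1.80-fold above WT control in CF control, and at least 1.75-fold below CF control in CF + lubiprostone. Lama1, an alpha chain of embryonic and epithelial laminin, was below the median except in CF control, where it had 110.4.

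Lamb1 and Lamc1, the beta and gamma chains found in many laminin trimers, were flatter. Lamb1 had 1392 in CF + lubiprostone, 1542 in CF control, 1444 in WT + lubiprostone and 1334 in WT control. Lamc1 had 543 in CF + lubiprostone, 619.9 in CF control, 485 in WT + lubiprostone and 623 in WT control. Lamb1 was 1.40-fold higher over 3 probe sets in CF control than in WT control, while Lamc1 had a ratio of 0.995. Lama5, the main alpha chain under adult gut epithelium, had 400.4 in CF + lubiprostone, 337 in CF control, 435 in WT + lubiprostone and 467 in WT control on its brighter probe set, and the dimmer one gave the opposite direction between the genotypes. Lamb2, of mature basement membranes, had 115, 57.2, 129 and 140.0 in the same order, at least 1.28-fold below WT control in CF control.

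The proteins that tie the networks together differed from each other. Fn1 encodes fibronectin, the adhesive glycoprotein on which fibrils assemble, and its brighter probe set had 2029 in CF + lubiprostone, 3175 in CF control, 1608 in WT + lubiprostone and 1823 in WT control. The second probe set had 253 in CF + lubiprostone, 309 in CF control, 249 in WT + lubiprostone and 324 in WT control, so the CF over WT ratios were 1.74 and 0.952 and do not agree. Nid1, the main nidogen, had 1439 in CF + lubiprostone, 1539 in CF control, 1158 in WT + lubiprostone and 1361 in WT control, with an untreated CF/WT ratio of 1.28. Nid2, its dimmer relative, had 166 in CF + lubiprostone, 180.3 in CF control, 185 in WT + lubiprostone and 287 in WT control. WT control stood above the other pools for Nid2, which was 1.55-fold lower in WT + lubiprostone than in WT control.

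The order of the arrays describes the same pattern. CF control was the highest array for 35 of the 64 usable member probe sets (54.7%), against 26.9% of the usable probe sets of all genes. Among probe sets chosen by their mean signal it was the highest for 32 of 54 (59.3%), against 27.4% of those of all genes. WT + lubiprostone was the lowest for 22 of the 64 (34.4%), against 21.3% of all genes' probe sets. Between probe sets of the same member gene log2 ratios had a median SD of 0.28 in the untreated CF/WT ratio and 0.14 in the CF lubiprostone ratio, against 0.24 and 0.26 over all genes with several probe sets. This is spread within arrays only, and it cannot stand for spread between pools. Col1a1, Col1a2, Col3a1, Col5a1 and Col5a2 are the fibrillar chains past 1.5-fold in both ratios, where that spread is 1.21-fold and 1.10-fold. That their log2 ratios, at 0.79 to 1.21 and -1.09 to -1.24, exceed it was fixed by this choice. Nothing is concluded from the size of these log2 ratios beside it. With dim signals set to the median, those of Col5a1 are 0.65 and -0.90.

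Genes that act on the chains were read from lists of related genes. Of 31 genes of collagen and laminin processing, 17 could be compared in the CF lubiprostone ratio, 4 at least 1.5-fold lower (against 6.43% of all genes) and 1 higher (9.43%), with a median log2 ratio of -0.29. With dim signals set to the median 2 were lower, Serpinh1 and Pcolce, and 0 higher. Serpinh1, the collagen chaperone of the endoplasmic reticulum, had 625 in CF + lubiprostone, 1479 in CF control, 632 in WT + lubiprostone and 1219 in WT control, and was 2.11-fold below CF control in CF + lubiprostone. Pcolce, which speeds the cleavage of procollagen, had 360.4 in CF + lubiprostone, 638 in CF control, 391 in WT + lubiprostone and 482 in WT control. Both were picked out after their values were seen, and for both the CF control pool was highest and the treated pools were near each other. In the untreated CF/WT ratio 2 of 18 genes of this list were at least 1.5-fold higher (against 7.95% of all genes) and 3 lower (11.8%), with a median of 0.25. With dim signals set to the median 0 were higher and 2 lower, Bmp1 and Pepd, the direction opposite to that of Col1a1. Bmp1 was at least 2.39-fold and Pepd 1.95-fold below WT control in CF control. The brightest genes of the list, P4hb and Ppib, which also serve the folding of other secreted proteins, had ratios of 1.34 and 0.910 in the CF lubiprostone ratio.

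Some proteoglycan and elastic fibre genes were lower in CF + lubiprostone too. Of 27, 21 could be compared with CF control, 8 at least 1.5-fold lower (against 6.43% of all genes) and 1 higher (9.43%), with a median of -0.46. With dim signals set to the median 6 were lower, Lum, Ogn, Aspn, Eln, Mfap2 and Fbln1. The median between the untreated pools was 0.09. Lum, which spaces collagen fibrils and was picked out after its values were seen, had 433 in CF + lubiprostone, 1017 in CF control, 441 in WT + lubiprostone and 625 in WT control. Dcn, decorin, the brightest of this list and also a fibroblast marker, had 3363 in CF + lubiprostone, 3452 in CF control, 2776 in WT + lubiprostone and 2669.9 in WT control, and did not follow Lum. Fbln1, a fibulin of elastic fibres, was lower in both CF pools, with 943 in CF + lubiprostone, 1453 in CF control, 2339 in WT + lubiprostone and 2797 in WT control.

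Proteases that cut matrix and their inhibitors had medians above 0 in all 4 comparisons. These were 0.26 in the untreated CF/WT ratio, 0.15 in the CF lubiprostone ratio and 0.10 in the WT lubiprostone ratio. The median was largest in the treated CF/WT ratio. Of 17 genes compared there, 8 were higher in CF + lubiprostone by at least 1.5-fold (against 8.22% of all genes) and 1 lower (8.86%), with a median of 0.51. With dim signals set to the median 7 were higher. Plat, tissue plasminogen activator, had 1121 in CF + lubiprostone, 537 in CF control, 337 in WT + lubiprostone and 411 in WT control. Adamts1, a protease of proteoglycans, had 703 in CF + lubiprostone, 312 in CF control, 218 in WT + lubiprostone and 171 in WT control. Both were highest in CF + lubiprostone, where Plat was 3.33-fold and Adamts1 3.23-fold above WT + lubiprostone. Matrix receptors had medians between -0.06 and 0.01 in the 4 comparisons, and TGF-beta ligands, receptors and signalling genes between -0.08 and 0.15.

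Cell type markers were read beside the chains. Of 13 smooth muscle markers, 11 had an untreated CF/WT ratio above 1 and 12 a CF lubiprostone ratio below 1, with medians of 0.43 and -0.37. Of all genes, 5690 of 11806 were above 1 in the first and 5722 of 11795 below 1 in the second. The summed signal of the smooth muscle markers was 45996 in CF + lubiprostone, 61939 in CF control, 52042 in WT + lubiprostone and 47245 in WT control. Actg2, the gut smooth muscle actin, had 4335 in CF + lubiprostone, 8436 in CF control, 4162 in WT + lubiprostone and 3643 in WT control, 2.32-fold above WT control in CF control. Myocd, a coactivator of smooth muscle genes, had 248, 623, 322 and 447 in the same order and was 2.51-fold below CF control in CF + lubiprostone. Both were picked out after their values were seen. By their medians, smooth muscle genes moved with the 5 fibrillar chains named above in these 2 comparisons, which share the CF control array. In the WT lubiprostone ratio the smooth muscle median was 0.11, against -0.26 for the fibrillar list. In the treated CF/WT ratio it was -0.03, against 0.13. The part of smooth muscle genes in the result was not tested. The 13 measured fibroblast markers had medians of 0.17 in the untreated CF/WT ratio and -0.07 in the CF lubiprostone ratio, and summed signals of 14844 in CF + lubiprostone, 16195 in CF control, 14885 in WT + lubiprostone and 16185 in WT control. In the CF lubiprostone ratio 3 of the 13 were at least 1.5-fold lower (against 6.43% of all genes) and 0 higher (9.43%). These were Mfap5 and, with signals given above, Lum and Fbln1. Lum was 1.63-fold above WT control in CF control, and Fbln1 was 2.04-fold below it. Vim, the intermediate filament of mesenchymal cells, had 3408 in CF + lubiprostone, 3910 in CF control, 2803 in WT + lubiprostone and 3019 in WT control. Its spread was smaller than that of Col1a1.

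Other markers also moved with CF control. Of 6 measured mast cell markers, 5 had an untreated CF/WT ratio above 1 and all 6 a CF lubiprostone ratio below 1, where 5690 of 11806 and 5722 of 11795 of all genes had. The summed signal of the mast cell list was 1345 in CF + lubiprostone, 10615 in CF control, 953 in WT + lubiprostone and 1262 in WT control. Pancreatic acinar genes, of an organ that adjoins the duodenum, summed to 11773 in CF + lubiprostone, 45043 in CF control, 7656 in WT + lubiprostone and 40321 in WT control, so that both control pools held more of them. The part of either in the collagen result was not tested. Median ratios of 15 epithelial markers were -0.11 in the untreated CF/WT ratio and 0.18 in the CF lubiprostone ratio. Scaling the arrays to the same median raised the median log2 ratio of all genes to 0.16 in the untreated CF/WT ratio and lowered it to -0.12 in the CF lubiprostone ratio, with members then at 17 higher and 6 lower, and at 2 higher and 17 lower. All genes were at 1678 higher and 922 lower, and at 771 higher and 1212 lower, under that scaling, where as deposited they were at 939 and 1388, and at 1112 and 758. Quantile normalization put all genes at 1164 higher and 1102 lower, and at 870 higher and 913 lower, and the members at 15 and 7, and at 2 and 13.

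**Figure D4:**
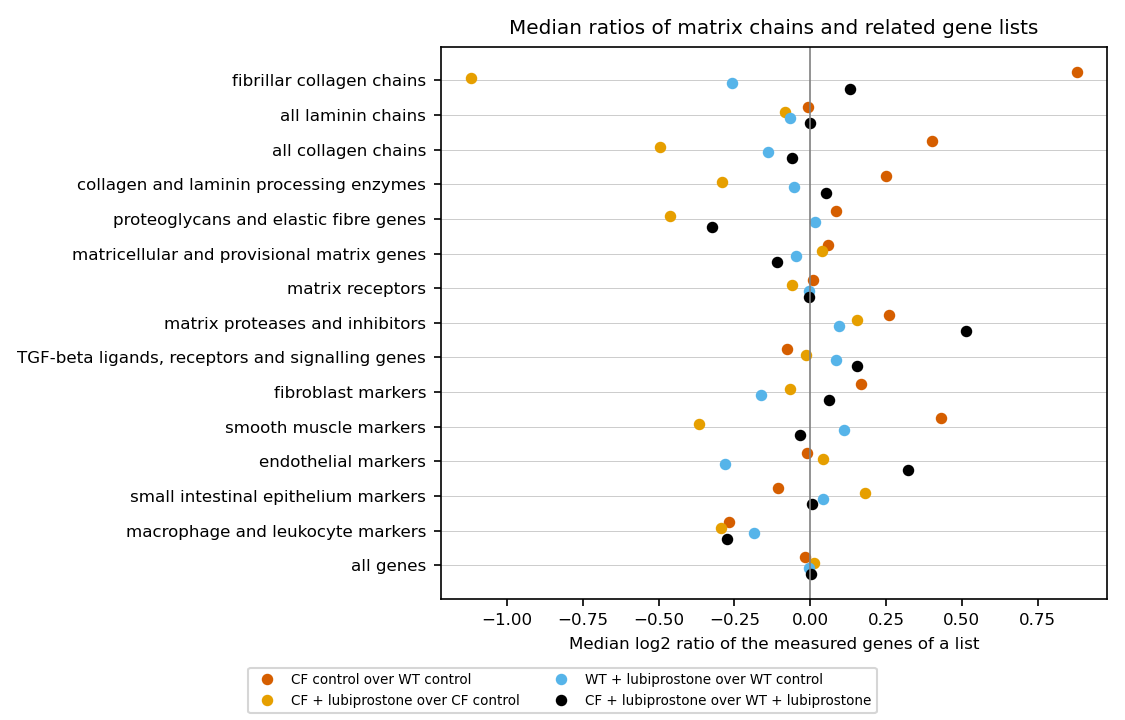
Median log2 ratio of the measured genes of member groups, related lists and all genes, with 1 point for each of the 4 comparisons of pools. Fibrillar collagens lie at 0.88 in the untreated CF/WT ratio and -1.12 in the CF lubiprostone ratio, while laminins lie at -0.01 and -0.08.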

How the data were processed

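Gene expression was read from the intensity signals that the authors deposited for 4 Affymetrix Mouse 430 2.0 arrays, on a linear scale and summarized per probe set with GCOS and MAS5 by the submitters' processing notes (versions not given in the sources used here). The trimmed mean, without the highest and lowest 2%, was 500.003 on each array, so the arrays had been scaled. Of 45101 probe sets, 34958 carried 1 gene symbol in the platform annotation, 932 several (left out) and 9211 none, and 34754 were given a current symbol by gene identifier. Probe sets were used where at least 1 array had a signal at or above its own median, and a gene entered a comparison when a kept probe set reached it in 1 of the 2 arrays compared. This left 21756 probe sets of 12259 genes. Where a gene had several usable probe sets, their log2 ratios were averaged. Folds written as at least have the dim signal set to the median. Thresholds were 1.5-fold, and 3-fold as in the study.

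The naming rule took members whose brightest probe set reached the 75th percentile of an array or which passed 3-fold once signals under the median were raised to it. From the lists it took the 2 brightest genes and those past 3-fold in the same way, but not all of these are given. Other members and list genes that are given fall outside the rule, also where the text does not say that they were picked out. Of 264 genes on 15 lists, 243 were on the array. The members and lists were chosen with earlier results of these data known. Alternatives tried were arrays scaled to 1 common median, quantile normalization, a filter at the 75th percentile or none, the brightest probe set, linear averaging, dim signals raised to the median and, added after seeing the data, a filter on mean signal. The steps were tested on simulated data. The GCOS change calls of the study were not used. Python 3.11.15, numpy 2.4.6, pandas 2.3.3 and matplotlib 3.10.9 were used.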

Additional observations from a re-analysis of the deposited data

Results flagged for a closer look

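The CF over WT log2 ratio had opposite signs in untreated and treated mice for the members' median. So did 3 of the brighter genes that passed 1.5-fold in either comparison. Other genes kept their sign but differed in size, such as Col3a1, at 0.88 untreated and 0.03 treated. With 1 pool per group, none of these differences was tested. The median log2 ratio of the members was 0.36 in the untreated CF/WT ratio and -0.01 in the treated CF/WT ratio, a difference of 0.37. For Col1a1 the log2 ratios were 1.03 untreated and -0.05 treated, a difference of 1.09, and its 2 probe sets lay on either side of 1 in the treated pools (0.849 and 1.09). For Col5a1 they were 0.79 untreated and -0.36 treated, a difference of 1.15, but with dim signals raised to the median the treated value was -0.05. Lamb3 went the other way, at -1.42 untreated and 0.18 treated, a difference of -1.59.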

How the results depend on the processing

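No paired analysis was possible because each group is 1 pooled array with no replicate number, and for the same reason no replicate could be left out. Of the members past 1.5-fold, 9 of the 15 higher and 2 of the 8 lower in the untreated CF/WT ratio passed in every alternative that measured them, as did 7 of the 11 lower and 1 of the 2 higher in the CF lubiprostone ratio. These are Col1a1, Col1a2, Col3a1, Col4a1, Col4a2, Col5a2, Col9a1, Lama4 and Sparc, and Col25a1 and Lamb3, then Col1a1, Col3a1, Col5a1, Col5a2, Col6a3, Lama4 and Sparc, and Lamb3. 

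Without a filter, the members' median log2 ratio was 0.0052 in the untreated CF/WT ratio and -0.10 in the CF lubiprostone ratio, and with a filter at the 75th percentile it was -0.58 in the CF lubiprostone ratio. In the untreated CF/WT ratio, 9 members were at least 1.5-fold higher with the filter at the 75th percentile. Those at least 1.5-fold lower were 16 without a filter, 3 with the filter at the 75th percentile and 5 with dim signals raised to the median. At 3-fold, 0 passed under the filter at the 75th percentile, with dim signals raised to the median, or with the filter on mean signal. In the CF lubiprostone ratio, the higher members were 10 without a filter and 1 with the filter at the 75th percentile, the brightest probe set, dim signals raised to the median or the filter on mean signal. The lower were 17 with arrays scaled to the same median, and at 3-fold 5 passed without a filter and 1 with each of the filter at the 75th percentile, dim signals raised to the median and the filter on mean signal.

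In the WT lubiprostone ratio, the higher members were 2 with quantile normalization, the brightest probe set or linear averaging, 3 without a filter, and 0 with the filter at the 75th percentile or dim signals raised to the median. The lower were 8 without a filter, 5 with the brightest probe set and 1 with the filter at the 75th percentile, dim signals raised to the median or the filter on mean signal. At 3-fold, 2 passed without a filter and 0 with each of those 3 settings. In the treated CF/WT ratio, the higher members were 7 without a filter, 0 with the filter at the 75th percentile or dim signals raised to the median, and 1 with the brightest probe set, linear averaging or the filter on mean signal. The lower were 8 without a filter and 1 with the filter at the 75th percentile, linear averaging or dim signals raised to the median, and 3 passed 3-fold without a filter. The count of members with the same direction in untreated and treated mice was 12 with the filter at the 75th percentile.

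Among the genes past 1.5-fold, the only ones for which single values were recomputed, directions turned for 4. Lama5, which is not among them, also turned with its brightest probe set. In the untreated CF/WT ratio the log2 ratio of Col12a1 was -0.62 without a filter and -0.10 with the brightest probe set or the filter on mean signal. That of Col6a4 was -0.60 with the filter at the 75th percentile, the brightest probe set or the filter on mean signal, -0.38 with linear averaging and -0.39 with dim signals raised to the median. Lama1 was at -0.17 with dim signals raised to the median, and Lama3 at 0.61 without a filter, where a probe set below the median on all arrays joins it. In the CF lubiprostone ratio, Col12a1 was at 0.54 without a filter and Lama1 at 0.12 with dim signals raised to the median. In the treated CF/WT ratio, Col6a4 was at -0.23 with the filter at the 75th percentile, the brightest probe set or the filter on mean signal, -0.0033 with linear averaging and -0.13 with dim signals raised to the median. Where no value shows a cause, the cause was not tested. With 1 array a group, only the agreement of probe sets and the signal over the median limit what can be read.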

Other observations

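Matricellular and provisional matrix genes, which are secreted into the matrix without building its scaffold, did not shift as a list. Of 16 compared, the median log2 ratio was 0.06 in the untreated CF/WT ratio and 0.04 in the CF lubiprostone ratio. Tnc, tenascin C of remodelling tissue, was picked out after its values were seen, with 642 in CF + lubiprostone, 1294 in CF control, 589.9 in WT + lubiprostone and 815 in WT control. It was 1.59-fold above WT control in CF control and 2.01-fold below CF control in CF + lubiprostone. Sparcl1, a relative of Sparc, had 2115 in CF + lubiprostone, 1937 in CF control, 2786 in WT + lubiprostone and 2474 in WT control, lower in both CF pools than in both WT pools.

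Markers of further cell types were also read. Endothelial markers had medians of -0.01 in the untreated CF/WT ratio, 0.04 in the CF lubiprostone ratio, -0.28 in the WT lubiprostone ratio and 0.32 in the treated CF/WT ratio. Macrophage and leukocyte markers had medians of -0.27 and -0.30 in the untreated CF/WT and CF lubiprostone ratios, those of enteric glia and Schwann cells -0.24 and -0.04, and those of adipocytes and mesentery -0.45 and 0.62, the last 2 lists with no more than 5 genes compared.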
